A study of Mus musculus with 12 samples.

Results

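The 39 genes described here encode molecular chaperones and factors of the unfolded protein response (UPR) and were taken by name, with no threshold on a measured value. All 39 were rows of the deposited table of 47359 genes, and all 39 passed the filter on low counts that left 21565 genes for testing. The ER members were 20 genes, 16 chaperones and folding enzymes of the endoplasmic reticulum (ER) and 4 UPR factors. The cytosolic members were 16 genes, 9 heat shock proteins and 7 subunits of the chaperonin CCT, and 3 further genes encode mitochondrial chaperones. RNA came from TH17 cells, CD4 T cells that make IL-17, of the 2D2 line, whose transgenic T cell receptor recognises a myelin antigen. The cells had been transferred into RAG2-/- hosts, which lack T and B lymphocytes, and were sorted from the central nervous system (CNS) at the peak of experimental autoimmune encephalomyelitis. Donor cells were 2D2-WT or 2D2-IL-17A/F-DKO (double knockout, DKO), the latter without functional Il17a and Il17f, and each library was made from 1000 living cells sorted as CXCR6+ or SLAMF6+. Each WT subset had 5 libraries and each DKO subset 1, and the labels give neither the age of the mice nor whether replicate numbers mark separate animals, which means that p-values reflect the spread among these libraries and that spread may be technical.

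The ER folds proteins that are to be secreted or placed in membranes, and a T cell that makes cytokines draws on it heavily. When unfolded protein builds up there, the sensor IRE1 splices Xbp1 mRNA, PERK slows translation and favours ATF4 and its target CHOP (the product of Ddit3), and ATF6 is cut to release a transcription factor. Together these raise ER chaperones such as BiP (Hspa5). The cytosol has its own set: HSP70 and HSP90 proteins with their J-domain partners, some constitutive and some induced by the factor HSF1, and the ring-shaped CCT, which folds actin and tubulin. Total mRNA does not report splicing of Xbp1, cleavage of ATF6 or the amount of ATF4 protein.

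The DKO libraries stood apart from the WT libraries in more than the targeted genes, and this bears on each DKO value below. In the DKO CXCR6+ and SLAMF6+ libraries Il17a held 0 and 3 counts and Il17f 1 count each, against 1622 to 4751 and 174 to 1458 counts in the 10 WT libraries. The receptor segment Trbv16 made up 99.6 to 99.8% of Trbv counts in WT but 9.96% in DKO CXCR6+ and 6.51% in DKO SLAMF6+, so the DKO libraries went against the 2D2 label in this respect. Xist held 0 counts in both DKO libraries and 447 to 1846 in WT, and the Y-linked Ddx3y showed the reverse, with 314 and 249 counts in the DKO libraries and 0 in every WT library. Haemoglobin genes took 11.9% of counts in DKO SLAMF6+ and under 0.001% in each of the others. Summed over 13 myeloid and microglial markers, the level was 1601 CPM (CXCR6+) and 469.9 CPM (SLAMF6+) in the DKO libraries, against 6.27 to 28.1 CPM in WT, while S100a8 and S100a9 were at 0 in every WT library. The list did not move as one: Adgre1, C1qa, C1qb, C1qc and P2ry12 were at 0 in DKO CXCR6+ and C1qc and P2ry12 in DKO SLAMF6+, and Tmem119 was at 0.434 CPM in DKO SLAMF6+ against 13.9 to 22 CPM in WT SLAMF6+. MHC class II and dendritic markers (7 genes) summed to 264.9 and 1566 CPM in the DKO libraries, against 87.2 to 142 CPM in WT CXCR6+ and 269 to 331 CPM in WT SLAMF6+. CD8 and natural killer markers (5 genes) summed to 171 and 139 CPM in DKO and 9.82 to 36.6 CPM in WT. Klrk1 made up most of the DKO sums (160 and 82.4 CPM), and this list did not move as one either. Cd8b1 was lower in DKO (1.16 and 2.17 CPM) than in any WT library (4.23 to 24.5 CPM), and Cd8a was at 0 in DKO CXCR6+. T cell markers were abundant in all libraries (10 genes, 2390 to 3470 CPM in WT and 5394 and 5663 CPM in DKO), so T cells were present throughout. These markers do not tell 2D2 or TH17 cells from other T cells. The WT subsets differed in makeup too: mitochondrial transcripts took 12.9 to 17.6% of counts in CXCR6+ and 2.2 to 5.24% in SLAMF6+, and ribosomal protein genes 9.24 to 10.6% and 18.4 to 19.7%. The sorting markers were only partly mirrored in mRNA among WT cells. Slamf6 was 1.69 to 5.02 CPM in CXCR6+ and 5.9 to 11 CPM in SLAMF6+, while Cxcr6, at 4.34 to 42.9 and 11.4 to 19.2 CPM, overlapped. Both stood above every WT library in DKO: Cxcr6 at 382 CPM (CXCR6+) and 162 CPM (SLAMF6+), and Slamf6 at 75.8 and 259 CPM. Library totals were 6818658 to 11635037 counts, and the TMM factors that scale them were 1.13 to 1.22 in WT CXCR6+ and 0.877 to 0.902 in WT SLAMF6+.

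Levels are given as CPM, the usual depth-scaled count, here relative to the TMM-scaled library total, in the order of replicates 1 to 5 for each WT subset. Per kb of the longest coding transcript, the mean level in WT CXCR6+ was highest for Hspa8, the constitutive cytosolic HSP70, at 754 CPM per kb, followed by Hsp90ab1 at 609 and Hspe1, the mitochondrial co-chaperonin, at 279.5. In WT SLAMF6+ the same 3 genes led, at 1319, 841 and 529 CPM per kb. Among ER chaperones Hspa5 was highest per kb in WT CXCR6+ (166) with Calr next (161), and P4hb (161) was followed by Hspa5 (154) in WT SLAMF6+; Hspa5 varied 1.72-fold among WT CXCR6+ libraries, more than the gap to Calr. At the low end were Atf6 (1.69 and 1.56 CPM per kb in the 2 subsets), Dnajb9 (1.99 and 3.49) and Hspa1b (2.34 and 0.628). The 39 genes together made up 1.1 to 1.3% of all counts in the WT libraries, 0.817% in DKO CXCR6+ and 0.703% in DKO SLAMF6+.

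**Figure D1:**
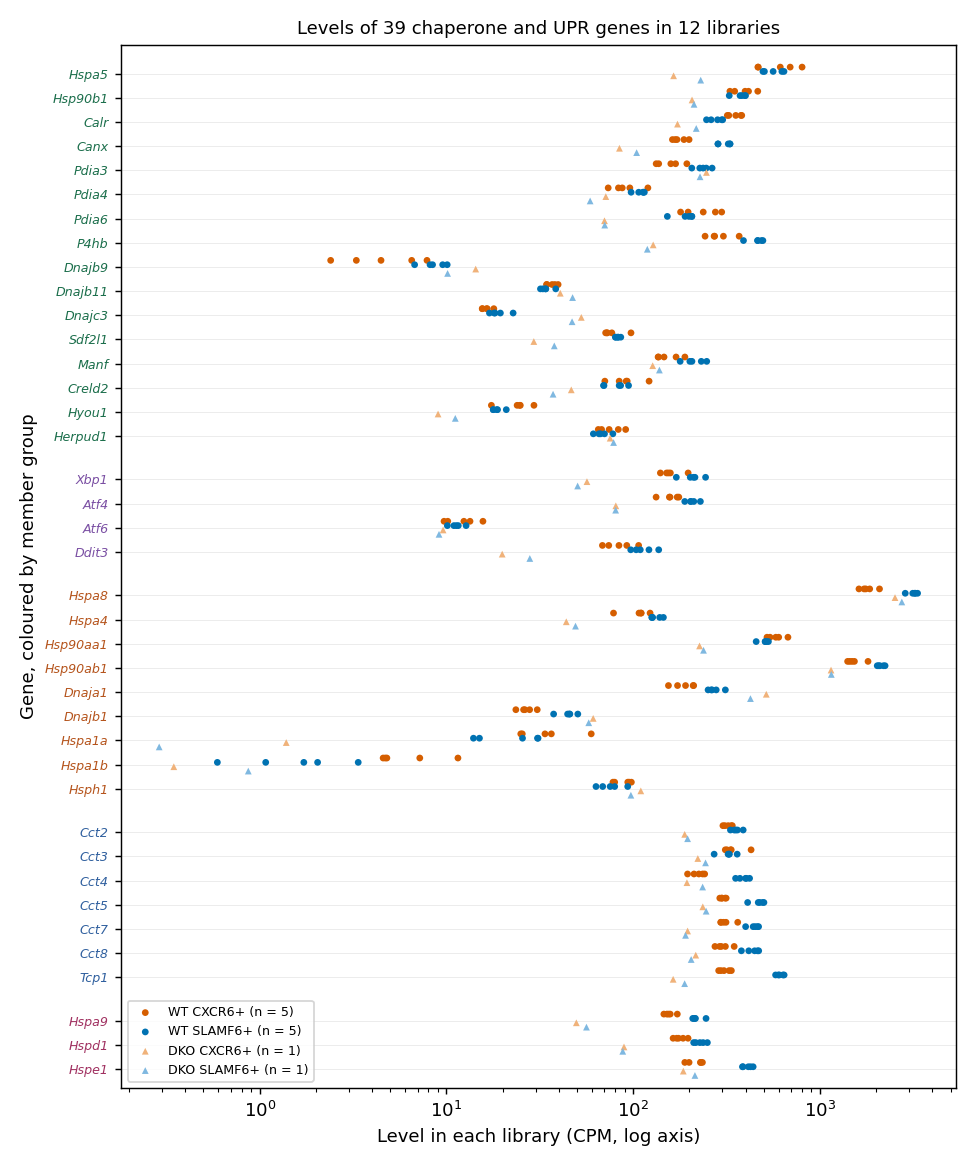
Level of each member in each library, in CPM on a log axis; rows are genes coloured by group, circles are the 5 libraries of a WT subset and triangles the single DKO libraries. Tcp1, Canx and Hspe1 form separate clouds for the WT subsets, Hspa5 does not, and the DKO triangles of Xbp1, Ddit3 and Hspa9 lie below all WT circles.

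The first comparison asks how WT CXCR6+ cells differed from WT SLAMF6+ cells. With edgeR's quasi-likelihood test and Benjamini-Hochberg adjustment over 21565 genes (called at an adjusted p under 0.05), 2 of the 39 members rose, 20 fell and 17 were not called. Of all genes tested, 15.6% rose and 17.7% fell, and of the 7876 genes with a mean of at least 10 CPM, to which 37 members belong, 20.7% rose and 42.5% fell. The members' share of falls (20 of 39) was thus close to that of other well-expressed genes. The median log2 fold change was -0.36 over the members, 0.13 over all genes and -0.26 over genes of at least 10 CPM. By the place where the products work, 1 ER member rose and 7 of 20 fell, 1 cytosolic member rose and 10 of 16 fell, and 3 of 3 mitochondrial members fell. Levels of the 5 WT CXCR6+ libraries lay wholly above those of WT SLAMF6+ for 2 members and wholly below for 17, against 12.8% and 15% of all genes. Fewer cells of a type and less RNA per cell cannot be told apart in these bulk samples.

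**Figure D2:**
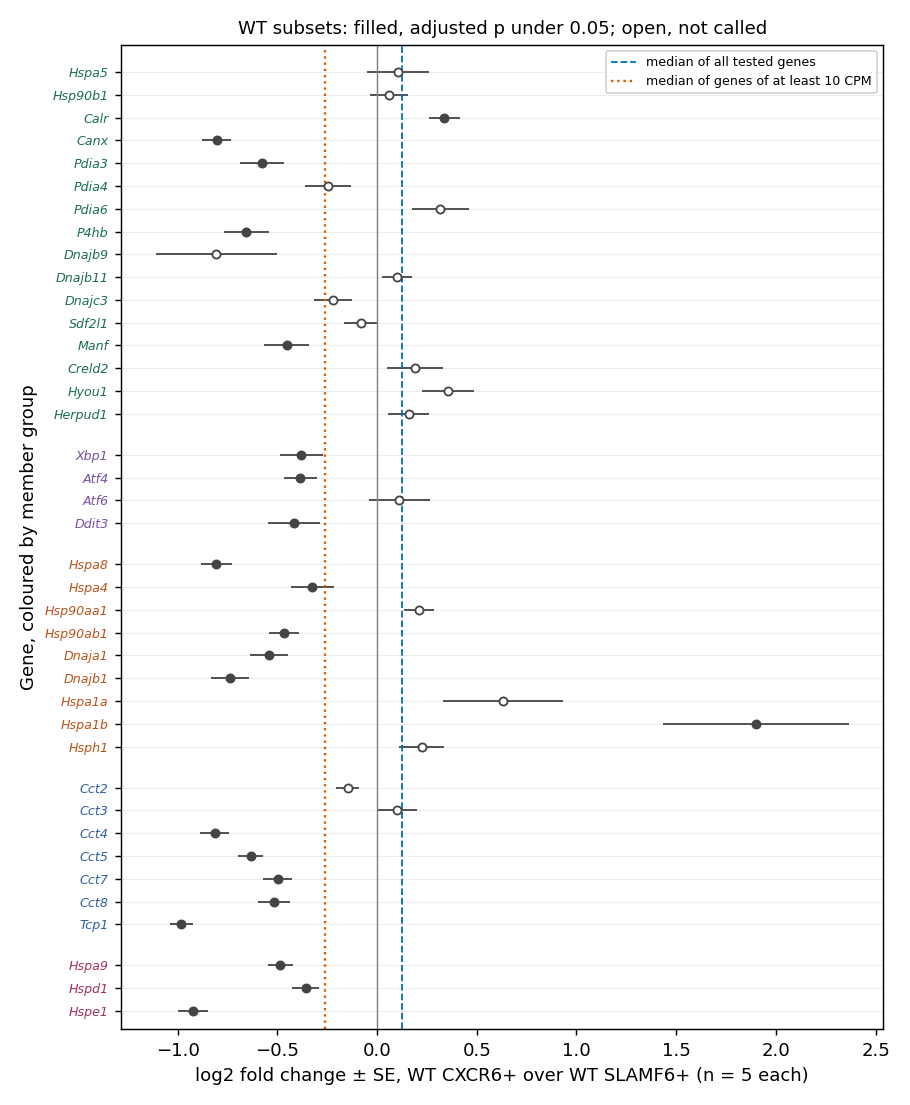
Log2 fold change of WT CXCR6+ over WT SLAMF6+ with its SE for each member; filled points were called and open points were not. Dashed and dotted lines mark the medians of all tested genes (0.13) and of genes of at least 10 CPM (-0.26); Canx, Hspa8, Cct4 and Tcp1 lie far to the left and Calr and Hspa1b to the right.

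Within the ER, the pair of lectin chaperones that hold newly made glycoproteins went opposite ways. Calnexin (Canx), the membrane-bound one, stood at 168, 187, 162, 199 and 172 CPM in the WT CXCR6+ libraries and 323, 284, 284, 329.7 and 329.6 CPM in the WT SLAMF6+ libraries. No WT CXCR6+ library reached a WT SLAMF6+ value, and the log2 fold change was -0.81 ± 0.08 (SE; adjusted p = 1.37e-05). Calreticulin (Calr), its soluble relative, stood at 354, 381, 325, 377 and 319 CPM in the WT CXCR6+ libraries and 298, 261, 301, 283 and 247 CPM in the WT SLAMF6+ libraries. It was higher in each WT CXCR6+ library than in any WT SLAMF6+ library, by 0.34 ± 0.08 on the log2 scale (adjusted p = 0.00559). The ratio of Calr to Canx, which no scaling of libraries can alter, was 2.11, 2.04, 2, 1.9 and 1.86 in WT CXCR6+ and 0.923, 0.919, 1.06, 0.858 and 0.749 in WT SLAMF6+. It was 2.05 in DKO CXCR6+ and 2.09 in DKO SLAMF6+, so it separated the WT subsets but not the DKO pair. This ratio was chosen after its values were seen and is given without a test.

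Of the 4 disulfide isomerases, which form and shuffle disulfide bonds, P4hb and Pdia3 fell. P4hb, the founding protein disulfide isomerase, stood at 271, 304, 243, 369 and 273 CPM in the WT CXCR6+ libraries and 463, 389, 486, 465 and 495 CPM in the WT SLAMF6+ libraries (log2 -0.66 ± 0.11, adjusted p = 9.23e-04), with every WT CXCR6+ library below every WT SLAMF6+ library. Pdia3 (ERp57), which works with the lectin chaperones, stood at 159, 169, 133, 194 and 137 CPM in the WT CXCR6+ libraries and 246, 206, 227, 265 and 237 CPM in the WT SLAMF6+ libraries, again with no overlap (-0.58 ± 0.11, adjusted p = 0.00178). Manf, a secreted ER stress protein, fell by 0.45 on the log2 scale (156 ± 23.2 against 213 ± 27 CPM, SD, n = 5 each; adjusted p = 0.0107), although the ranges of its libraries overlapped. Pdia6 and Pdia4 were not called, with 95% intervals of -0.001 to 0.63 and -0.51 to 0.01. With library totals alone in place of TMM, the differences in P4hb (-0.26, adjusted p = 0.0979), Pdia3 (-0.18, adjusted p = 0.231) and Manf (-0.07, adjusted p = 0.682) no longer passed. With GC and length offsets Manf was called as higher (0.32, adjusted p = 0.0472).

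The chaperones most often used as readouts of the UPR were not called. Hspa5, which encodes BiP, the HSP70 of the ER lumen, stood at 613, 693, 467, 802 and 465 CPM in the WT CXCR6+ libraries and 625, 495, 561, 642 and 504 CPM in the WT SLAMF6+ libraries. The ranges overlapped almost fully, and the difference was 0.11 ± 0.16 with a 95% interval of -0.24 to 0.45 (adjusted p = 0.639). With library totals alone Hspa5 was called as higher (0.50, adjusted p = 0.0353), as was Hsp90b1 (0.45, adjusted p = 0.00604). Hsp90b1 (GRP94, the ER form of HSP90) had an interval of -0.15 to 0.27, Sdf2l1 of -0.27 to 0.11, Creld2 of -0.12 to 0.50 and Herpud1 of -0.07 to 0.39. Hyou1 (0.36, adjusted p = 0.0568) and the J-domain genes Dnajb9 (-0.81, adjusted p = 0.064), Dnajc3 (-0.22, adjusted p = 0.102) and Dnajb11 (0.10, adjusted p = 0.322) were not called either. In all, 11 of the 16 ER chaperones were not called, 4 fell and 1 rose.

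The ER chaperones tended to share their highest and lowest library within WT CXCR6+. Replicate 4 was the highest of the 5 libraries for 13 of the 16 genes and replicate 3 the lowest for 10. The summed level of the 16 ran from 2388 to 3410 CPM in these libraries and from 2685 to 3277 CPM in WT SLAMF6+. The coefficient of variation over libraries had a median of 15.3% in WT CXCR6+ (5.91 to 46.1%) and 9.06% in WT SLAMF6+ (2.68 to 15.1%) over the 16 genes, a difference that was not tested. In WT SLAMF6+, replicate 2 was the lowest library for 10 of the 16 ER chaperones and for 7 of 7 CCT subunits. That library also had the lowest total of its subset (8134987 counts), the highest mitochondrial share (5.24%) and the only mt-Ts1 counts (111496). A link between these was not tested. Dnajb9, a low-level gene, varied most in WT CXCR6+, 3.28-fold between its extreme libraries (6.52, 3.29, 2.4, 7.87 and 4.46 CPM). Leaving out WT CXCR6+ replicate 4 turned the small Hspa5 difference to -0.02 and that of Hsp90b1 to -0.01, and neither was called in either fit.

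**Figure D3:**
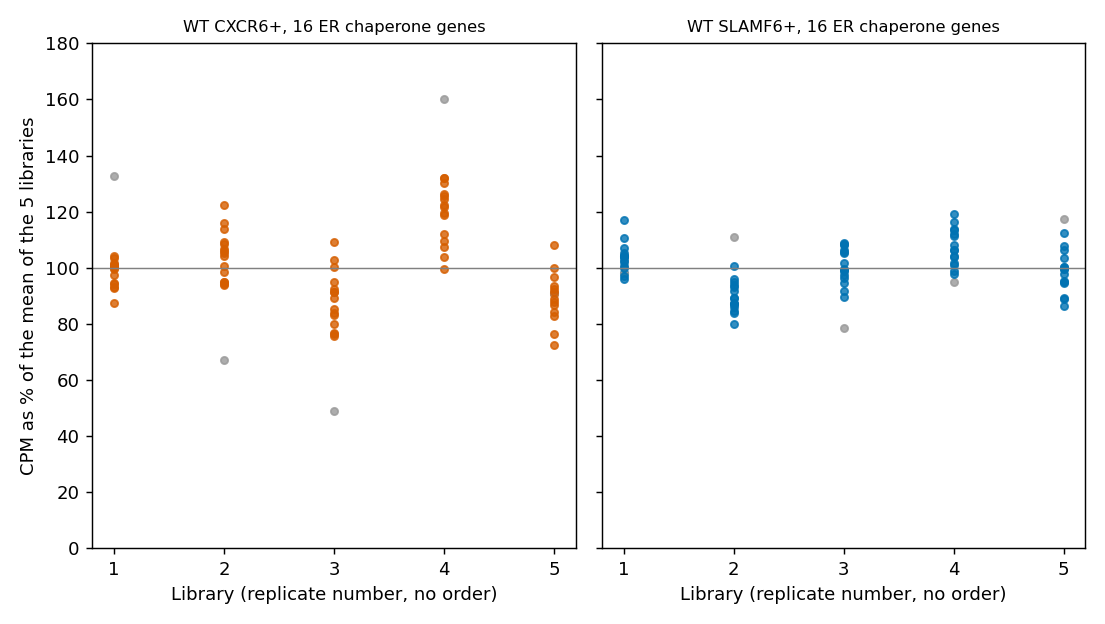
Each ER chaperone's CPM in each WT library as a percentage of its mean over the 5 libraries of the subset; points are genes, grey points are Dnajb9, and replicate numbers have no order. In WT CXCR6+ the points of replicate 4 sit mostly above 100% and those of replicate 3 mostly below.

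Of the UPR factors, 3 of 4 fell in WT CXCR6+ by a like amount. Xbp1 stood at 151, 154, 139.8, 158 and 197 CPM in the WT CXCR6+ libraries and 214, 202, 210, 170.1 and 244 CPM in the WT SLAMF6+ libraries (log2 -0.38 ± 0.11, adjusted p = 0.0211), and WT CXCR6+ replicate 5 reached into the WT SLAMF6+ range. Atf4 stood at 133, 157, 156, 172 and 175 CPM in the WT CXCR6+ libraries and 203, 189, 203, 229 and 211 CPM in the WT SLAMF6+ libraries, without overlap (-0.38 ± 0.08, adjusted p = 0.00403). Ddit3, which encodes CHOP, stood at 68.4, 74, 107, 83.9 and 92.4 CPM in the WT CXCR6+ libraries and 109, 137, 97, 121 and 104 CPM in the WT SLAMF6+ libraries, with overlap (-0.42 ± 0.13, adjusted p = 0.0319). Atf6 was not called (95% interval -0.23 to 0.45). The highest Xbp1 value came from WT SLAMF6+ replicate 5. Summed over 11 plasma and B cell markers, that library held 253.7 CPM, mostly from Igkc (116 CPM), Ighm (99.1 CPM) and Mzb1 (16.2 CPM), while Sdc1 (14.3 CPM), Prdm1 (2.18 CPM) and Jchain (0.89 CPM) were within the range of the other WT libraries; their part in the Xbp1 value was not tested. Without that library the Xbp1 difference was -0.32 (adjusted p = 0.0517), and with library totals alone Xbp1, Atf4 and Ddit3 stood at 0.01, 0.01 and -0.03, none called. Atf4 was not called with GC and length offsets either (-0.04, adjusted p = 0.675). The Ddit3 call was lost in 14 of 27 alternative settings and the Xbp1 call in 9.

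Of the cytosolic heat shock members, 5 of 9 fell and 1 rose. Hspa8 stood at 1759, 1722, 1846, 2083 and 1617 CPM in the WT CXCR6+ libraries and 3138, 2861, 3237, 3331 and 3219 CPM in the WT SLAMF6+ libraries; the subsets lay far apart, at -0.81 ± 0.08, adjusted p = 1.85e-05. Hsp90ab1, the constitutive cytosolic HSP90, stood at 1485, 1406, 1808, 1529 and 1443 CPM in the WT CXCR6+ libraries and 2187, 2061, 2231, 2093 and 2026 CPM in the WT SLAMF6+ libraries (-0.47 ± 0.08, adjusted p = 6.53e-04). Hsp90aa1, its inducible relative, stood at 520.4, 580.1, 674, 540.2 and 601 CPM in the WT CXCR6+ libraries and 510, 455, 518, 529.5 and 508 CPM in the WT SLAMF6+ libraries and was not called (0.21, 95% interval 0.04 to 0.38, adjusted p = 0.0544). The ratio of Hsp90aa1 to Hsp90ab1 was 0.35 to 0.417 in WT CXCR6+ and 0.221 to 0.253 in WT SLAMF6+, and 0.198 and 0.207 in the DKO libraries. It too was picked after the values were seen and has no test.

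The J-domain proteins that feed clients to HSP70 fell alongside Hspa8. Dnaja1 stood at 211, 191, 173, 209 and 154 CPM in the WT CXCR6+ libraries and 278, 252, 262, 311 and 265 CPM in the WT SLAMF6+ libraries (-0.54 ± 0.10, adjusted p = 0.00112) and Dnajb1 at 26.3, 30.6, 23.5, 27.9 and 25.9 CPM in the WT CXCR6+ libraries and 45.5, 37.5, 50.5, 44.5 and 45.8 CPM in the WT SLAMF6+ libraries (-0.74 ± 0.10, adjusted p = 1.39e-04), neither with overlap. Hspa4, a nucleotide exchange factor for HSP70, fell by 0.33 on the log2 scale (adjusted p = 0.0375), a call lost in 17 of 27 alternative settings. Hsph1, another exchange factor, was not called (95% interval -0.02 to 0.47).

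Stress-inducible HSP70 is encoded by Hspa1a and Hspa1b, neighbouring genes whose transcripts share 61.8 to 65.5% of their 38-base stretches, the length of a read, so the split of reads between them is uncertain. Hspa1a stood at 36.4, 59.6, 25.5, 25 and 33.7 CPM in the WT CXCR6+ libraries and 30.9, 15, 25.5, 30.7 and 14 CPM in the WT SLAMF6+ libraries and was not called (0.63, adjusted p = 0.128). Hspa1b stood at 4.71, 11.5, 7.2, 4.58 and 4.8 CPM in the WT CXCR6+ libraries and 1.72, 3.37, 1.08, 2.04 and 0.593 CPM in the WT SLAMF6+ libraries and rose (1.9 ± 0.47, adjusted p = 0.00868), with each WT CXCR6+ library above each WT SLAMF6+ library. Summed to 1 row, the pair differed by 0.77 on the log2 scale with an adjusted p of 0.0628 and was not called.

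CCT is built from related subunits, and 5 of its 7 listed genes fell. Tcp1 stood at 306, 295, 326, 287 and 335 CPM in the WT CXCR6+ libraries and 606, 579, 598, 643 and 633 CPM in the WT SLAMF6+ libraries and had the lowest adjusted p of all members (-0.98 ± 0.06, adjusted p = 9.58e-07). Cct4 stood at 241, 195, 225, 235 and 212 CPM in the WT CXCR6+ libraries and 373, 353, 403, 419.8 and 399.8 CPM in the WT SLAMF6+ libraries (-0.81 ± 0.07, adjusted p = 9.67e-06) and Cct5 at 291, 299, 311, 315 and 298 CPM in the WT CXCR6+ libraries and 467, 409.9, 493, 501 and 476 CPM in the WT SLAMF6+ libraries (-0.63 ± 0.06, adjusted p = 1.71e-05). The subsets did not overlap for these 3 subunits, nor for Cct7 (314, 305, 295, 363 and 294 against 439, 399.8, 469, 462 and 449.8 CPM, -0.50) and Cct8 (-0.52). Cct2 (323, 302, 309.6, 335 and 339 against 347, 332, 354, 362 and 388 CPM) and Cct3 (311, 318, 428, 335 and 332 against 322, 271, 360.3, 327 and 326 CPM) were not called, with intervals of -0.27 to -0.02 and -0.12 to 0.32. Subunits of a single ring thus ranged from -0.98 to 0.10 on the log2 scale. Offsets for GC content and transcript length turned Cct2 to 0.62 (adjusted p = 3.8e-06) and Cct8 to 0.08 (not called).

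All 3 mitochondrial chaperones fell. Hspe1 stood at 229.5, 189, 229, 199 and 235 CPM in the WT CXCR6+ libraries and 387, 439, 385, 425 and 413 CPM in the WT SLAMF6+ libraries (-0.92 ± 0.07, adjusted p = 5.18e-06). Hspd1, whose product forms the folding chamber that the Hspe1 product caps, stood at 171, 164, 185, 197 and 175 CPM in the WT CXCR6+ libraries and 216, 211, 237, 249.5 and 228 CPM in the WT SLAMF6+ libraries (-0.36 ± 0.07, adjusted p = 0.00184). Hspa9, the HSP70 of the matrix, stood at 146, 151, 155, 172 and 158 CPM in the WT CXCR6+ libraries and 214, 208, 211, 245 and 215 CPM in the WT SLAMF6+ libraries (-0.49 ± 0.06, adjusted p = 1.67e-04). None overlapped between subsets, although transcripts encoded by the mitochondrial genome itself took a larger share of counts in WT CXCR6+ (above). Hspd1 and Hspe1 lie head to head and share 112 exon bases on opposite strands, which libraries without strand cannot assign. Library totals alone left Hspe1 called as lower, and GC and length offsets left Hspa9, 1 of 3 in each case.

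The scaling, the filter and offsets for GC content and transcript length changed how many members were called, in both directions. With library totals alone, an alternative added after seeing the data, the median of all genes moved from 0.13 to 0.52 and that of the members from -0.36 to 0.03; 10 ER members then rose and 1 fell, and 6 cytosolic members rose and 5 fell. Of all called genes, 5660 of 7457 were then higher, against 3363 of 7179 with TMM. A filter at 10 CPM in at least 5 libraries gave 9 ER members higher and 3 lower. With GC and length offsets the members' median was -0.03, against 0.24 over all genes and -0.06 over genes of at least 10 CPM. In every one of the 27 alternatives Canx, Hspa8, Dnajb1, Cct4, Cct5 and Tcp1 were called as lower and Calr as higher, and no other call in this comparison held throughout. Their values ranged from -0.88 to -0.41 (Canx), -0.86 to -0.42 (Hspa8), -1.01 to -0.59 (Tcp1) and 0.29 to 0.73 (Calr).

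**Figure D4:**
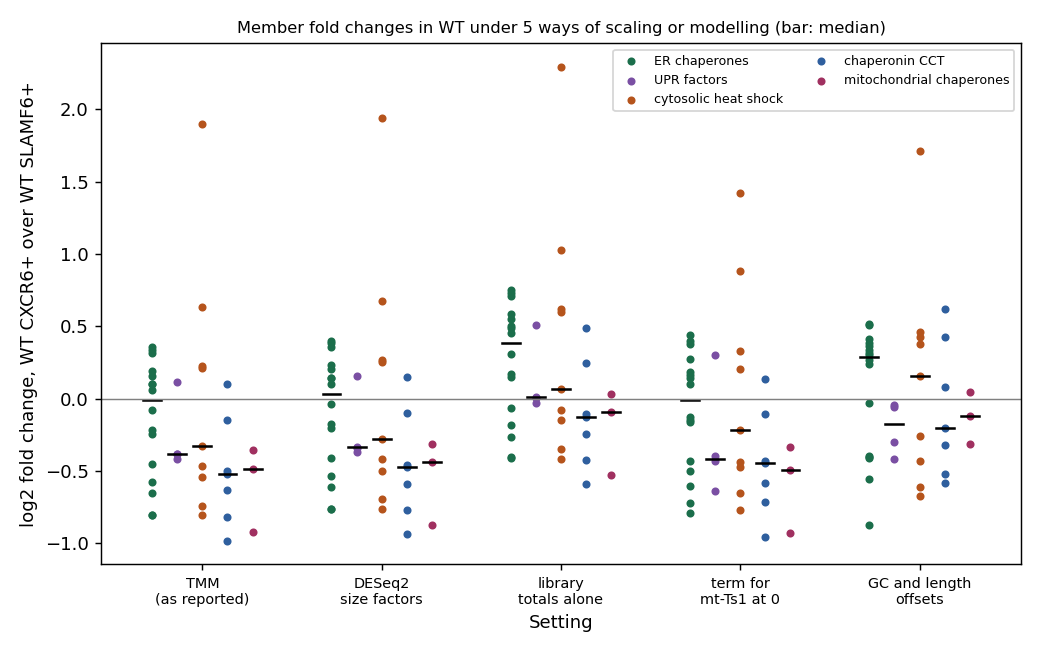
Log2 fold change of WT CXCR6+ over WT SLAMF6+ for each member under 5 settings; points are genes, colours are member groups and black bars are group medians. Every group shifts up with library totals alone, while ER chaperones keep the highest median of the 5 groups in each setting shown.

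Other genes of these pathways were counted in lists chosen by function, to be read against the 20.7% of genes of at least 10 CPM that rose and the 42.5% that fell. The lists were not recounted with GC and length offsets, although short transcripts tended to be lower in this comparison. Over 7604 genes of at least 10 CPM, log2 fold change and transcript length had a Spearman correlation of 0.37. Of 31 genes for ER entry and folding, 17 fell and 3 rose, and the smallest p belonged to the translocon subunit Sec61b (-1.11 ± 0.08), the translocon-associated Ssr3 (-0.97 ± 0.08) and Kdelr2 (-0.80 ± 0.07), which retrieves escaped ER proteins. ER-associated degradation, which removes misfolded protein, was mixed: 4 of 16 rose and 3 fell, with the ubiquitin ligase Syvn1 at 0.89 ± 0.09 and Selenok at -0.71 ± 0.10. Of 14 UPR sensors and feedback genes, 3 fell (Eif2s1 -0.92, Asns -0.69, Trib3 -0.76) and 1 rose. Co-chaperones fell in 13 of 25 and rose in 2 (Dnaja2 -0.97, St13 -0.77, Cacybp -0.68 among the falls). Of 9 tested genes of other CCT subunits and prefoldin, which hands actin and tubulin to CCT, 8 fell and none rose (Pfdn5 -1.22, Pfdn1 -0.94, Vbp1 -0.88). Mitochondrial proteostasis genes fell in 4 of 9 and rose in 1, with Dnaja3, the J-domain partner of Hspa9, at -0.72, Hscb at -1.37 and Grpel1 at -0.88. Of 12 immediate early genes, which respond to handling and to receptor signals, Atf3 (-1.09) and Junb (-0.30) fell and none rose.

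The second question is how DKO cells differed from WT cells of the same subset. In CXCR6+ cells 6 members rose, 25 fell and 8 were not called, where 12.8% of all genes rose and 15.9% fell (24.6% and 26% of genes of at least 10 CPM). In SLAMF6+ cells 3 rose, 26 fell and 10 were not called, where 13.5% of all genes rose and 17.5% fell (19.1% and 33.2% of genes of at least 10 CPM). The members' median log2 fold change was -0.77 in CXCR6+ and -0.93 in SLAMF6+, against -0.22 and -0.05 over all genes and -0.03 and -0.22 over genes of at least 10 CPM. The DKO value lay above all 5 WT libraries for 8 members and below for 30 in CXCR6+ (29.6% and 28.1% of all genes), and for 7 and 30 in SLAMF6+ (35.1% and 30.9%). In both subsets 22 of 39 members fell (56.4%; 10.6% of all genes), 2 rose (5.13%; 6.63% of all genes) and none went opposite ways. Each DKO group is a single library, assumed in these tests to vary like the WT libraries. The differences in receptor use, Xist and Ddx3y, Cxcr6 and Slamf6 mRNA and markers of other cell types described above moved with genotype. Haemoglobin did not, as it was high in DKO SLAMF6+ and within the WT range in DKO CXCR6+. The part of any of these differences in the results was not tested. Without receptor, mitochondrial, ribosomal protein and haemoglobin genes in the table, the counts of ER, cytosolic and mitochondrial members called in each direction were as reported.

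**Figure D5:**
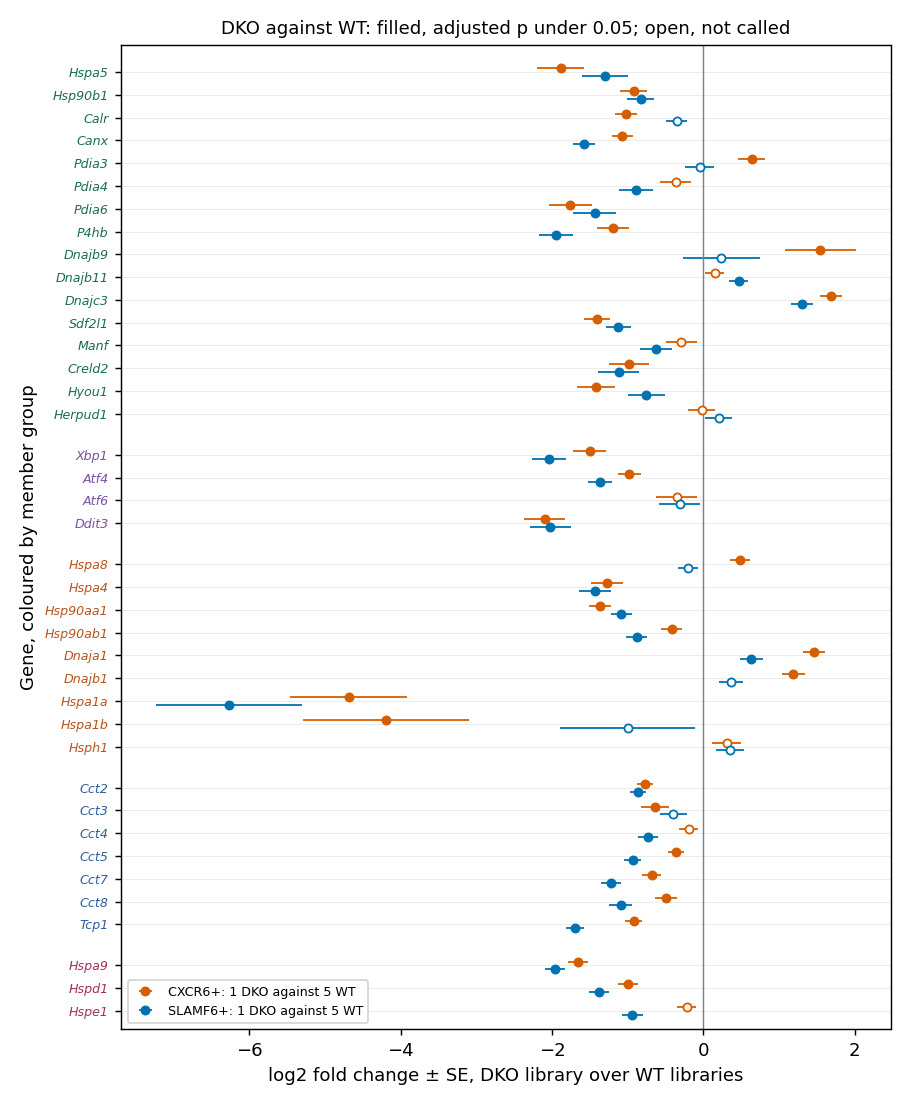
Log2 fold change of the DKO library over 5 WT libraries, with SE, in CXCR6+ (orange) and SLAMF6+ (blue); filled points were called. Most points lie left of 0, with Dnajc3 and Dnaja1 to the right in both subsets and Hspa1a farthest left, where DKO counts were 12 and 2.

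Of the 16 ER chaperones, 9 fell and 3 rose in DKO CXCR6+, and 10 fell and 2 rose in DKO SLAMF6+. Of genes of at least 10 CPM, 26% and 33.2% fell and 24.6% and 19.1% rose. Dnajc3 alone among the ER chaperones rose in both subsets. Hspa5 was down to 165 CPM in the CXCR6+ and 229.8 CPM in the SLAMF6+ DKO library, below the lowest WT library of either subset (465 and 495 CPM). The log2 fold changes were -1.89 ± 0.31, adjusted p = 8.93e-04, and -1.3 ± 0.30, adjusted p = 0.00671. Canx stood at 84.4 and 104 CPM in the DKO libraries (-1.07 and -1.57), Pdia6 at 70.2 and 70.4 (-1.76 and -1.44), and P4hb at 128 and 119 (-1.19 and -1.95). Sdf2l1, a partner of BiP, stood at 72.8, 76.8, 71.2, 97.3 and 72.2 CPM in the WT CXCR6+ libraries and 85.8, 83.1, 80.3, 80.7 and 82.8 CPM in the WT SLAMF6+ libraries, and at 29.4 and 37.8 CPM in DKO (-1.41 ± 0.17, adjusted p = 9.67e-05, and -1.13 ± 0.17, adjusted p = 4.06e-04). These 5 genes, with Hsp90b1 (207 and 212 CPM, -0.92 and -0.83), Creld2 (46.6 and 37.2 CPM, -0.98 and -1.12) and Hyou1 (9.02 and 11.2 CPM, -1.41 and -0.75), fell in both subsets. Pdia4 and Manf fell in SLAMF6+ (-0.89 and -0.62) and were not called in CXCR6+, with 95% intervals of -0.83 to 0.10 and -0.74 to 0.16. In SLAMF6+ the Hyou1 call was lost in 11 of 26 alternative settings and the Manf call in 13 (Manf -0.10, adjusted p = 0.73, with GC and length offsets).

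Dnajc3 (p58IPK), which helps BiP and restrains PERK, rose instead. It stood at 16.5, 15.6, 15.5, 17.9 and 16.4 CPM in the WT CXCR6+ libraries and 19.4, 17, 18, 22.8 and 18.2 CPM in the WT SLAMF6+ libraries, but reached 52.7 CPM in the CXCR6+ and 47.1 CPM in the SLAMF6+ DKO library. Both DKO values were more than 2 times that of any WT library, with log2 fold changes of 1.68 ± 0.15, adjusted p = 8.75e-06, and 1.3 ± 0.15, adjusted p = 6.86e-05. Calr fell in CXCR6+ (173 CPM, -1.03 ± 0.14, adjusted p = 2.84e-04) and was not called in SLAMF6+ (218 CPM, -0.35 ± 0.14, adjusted p = 0.0728). Pdia3 rose in CXCR6+ (247 CPM, 0.64 ± 0.18, adjusted p = 0.0198) and was not called in SLAMF6+ (228 CPM, -0.05). Dnajb9 rose in CXCR6+ (14.3 CPM, 1.54) and Dnajb11 in SLAMF6+ (47.4 CPM, 0.47), and Herpud1 was called in neither (-0.02 and 0.20). The rises in Pdia3 and Dnajb9 no longer passed with library totals alone (adjusted p = 0.124 and 0.0624).

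Promoters of several of these chaperones hold the ER stress response element (ERSE), the site at which ATF6 and XBP1 act together with NF-Y. RefSeq windows from 250 bases before to 50 after the start (GRCm38.p6) were found for 31 of the 39 members. The letters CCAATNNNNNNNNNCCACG, searched on both strands, occurred in 7 of them and in 0.137% of 27025 genes with a window. The pair of parts alone is common, CCAAT in 41.1% and CCACG in 35.5% of genes. The stretches below are shown because the genes that carry them mostly fell in DKO while Dnajc3 rose; each reads 5′ to 3′ on the gene's strand, with the CCAAT and CCACG parts, or their complement where the element is reversed, in capitals.
Hspa5 (chr2:34772010-34772058, + strand): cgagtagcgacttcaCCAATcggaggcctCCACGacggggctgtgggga
Pdia6 (chr12:17266476-17266524, + strand): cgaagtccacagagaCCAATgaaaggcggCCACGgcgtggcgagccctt
Canx (chr11:50325785-50325833, - strand): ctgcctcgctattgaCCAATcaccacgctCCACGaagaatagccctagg
Dnajc3 (chr14:118937812-118937860, + strand): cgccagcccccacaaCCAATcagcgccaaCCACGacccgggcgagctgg
Calr (chr8:84847060-84847108, - strand): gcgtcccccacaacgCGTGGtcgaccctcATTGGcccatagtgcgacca
Creld2 (chr15:88819505-88819553, + strand): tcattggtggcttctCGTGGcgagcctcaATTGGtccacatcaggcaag
In Hspa5 the element spans bases -65 to -47 from the start, in Pdia6 -98 to -80, in Canx -145 to -127 and in Dnajc3 -105 to -87. Calr (-162 to -144) and Creld2 (-126 to -108) carry it reversed, and Hsp90b1 carries it in each orientation. In DKO CXCR6+, 6 of these 7 genes fell and Dnajc3 rose, with a median of -1.02. The 7 ER chaperones that had a window without these letters numbered 2 lower and 2 higher, with a median of -0.02. Among them P4hb (-1.19 and -1.95) and Sdf2l1 (-1.41 and -1.13) fell in both DKO subsets, and Dnajb11 and Herpud1 carry a related form (below). Hyou1 (-1.41 and -0.75) and Manf (-0.29 and -0.62) had no window and are in neither set. The sets were not compared by a test, and the genes shown were picked with their changes known. In DKO SLAMF6+ the counts were 5 lower and 1 higher against 3 lower and 1 higher, with medians of -1.12 and -0.05, and in WT CXCR6+ against SLAMF6+ 1 of the 7 rose and 1 fell. A related form, ATTGGNCCACG, occurred in Dnajb11 and Herpud1 and in 0.0444% of genes. A match describes letters and is not evidence of binding. A part of ATF6 or XBP1 in these changes was not tested.

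The UPR factors fell in both DKO subsets, apart from Atf6. Xbp1 stood at 56.5 and 50.4 CPM in DKO CXCR6+ and DKO SLAMF6+, where the lowest WT libraries held 139.8 and 170.1 (-1.5 ± 0.22, adjusted p = 3.35e-04, and -2.05 ± 0.23, adjusted p = 5.13e-05). Atf4 stood at 80.7 and 80.5 CPM (-0.98 ± 0.15, adjusted p = 6.57e-04, and -1.36 ± 0.16, adjusted p = 7.98e-05). Ddit3 stood at 19.9 and 28 CPM (-2.1 ± 0.27, adjusted p = 1.70e-04, and -2.02 ± 0.27, adjusted p = 2.11e-04). All 3 were called in every alternative that was run, and Atf6 lay below the WT range without being called (9.6 and 9.12 CPM).

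Of 14 UPR sensors and feedback genes, 6 fell and 1 rose in DKO CXCR6+ and 7 fell and 1 rose in DKO SLAMF6+. Those with the smallest p were Asns, Trib3 and Chac1 in CXCR6+ and Asns, Sesn2 and Chac1 in SLAMF6+. Asns, asparagine synthetase, averaged 57.5 ± 8.42 CPM (CXCR6+) and 92.6 ± 9.53 CPM (SLAMF6+) in WT cells (SD, n = 5 each) and stood at 7.86 and 4.34 CPM in the DKO libraries (-2.87 ± 0.24, adjusted p = 7.21e-06, and -4.41 ± 0.27, adjusted p = 1.04e-06). Trib3, a pseudokinase that feeds back on ATF4, stood at 18.6 ± 3.02 and 31.4 ± 3.68 CPM in WT and 1.5 and 1.16 CPM in DKO (-3.61 and -4.74). Chac1 held 5 counts in DKO CXCR6+ and 0 in DKO SLAMF6+, the latter at least 24.4-fold lower than the WT mean of 10.6 CPM against a floor of 3 counts in that library. Sesn2 held 23 and 3 counts; with 3 counts the WT mean was 74.4 times the DKO SLAMF6+ value (95% exact Poisson interval 25.4 to 361, counting error of the DKO library only). The sensors Ern1 and Eif2ak3, which encode IRE1 and PERK, were called in neither subset.

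The inducible HSP70 genes were at a few counts in the DKO libraries. Hspa1a held 12 counts in DKO CXCR6+ and 2 in DKO SLAMF6+, or 1.39 and 0.29 CPM, where the WT means were 36 ± 14.1 and 23.2 ± 8.28 CPM (SD, n = 5 each). The WT mean was 26.0 times the DKO value in CXCR6+ (interval 14.9 to 50.3) and 80.2 times in SLAMF6+ (22.2 to 662). Hspa1a fell in both subsets by edgeR's test (adjusted p = 9.00e-04 and 5.52e-04) but not with limma-voom (adjusted p = 0.0587 and 0.2). Hspa1b held 3 and 6 counts, and the WT mean was 18.9 times (6.47 to 91.7) and 2.03 times (0.931 to 5.52) the DKO value. Hspa1b fell in CXCR6+ (adjusted p = 0.0143) and was not called in SLAMF6+ (adjusted p = 0.446). The summed pair fell in both (log2 -4.61 and -4.42, adjusted p = 0.000683 and 0.00117).

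Hspa1a and Hspa1b promoters are nearly one sequence, identical at 296 of 300 bases, and each holds a GAA and a TTC unit of the heat shock element in the same place, shown here in capitals because Hspa1a had the largest fall of the members in both DKO subsets.
Hspa1a (chr17:34972238-34972275, - strand): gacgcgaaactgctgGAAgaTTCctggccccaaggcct
Hspa1b (chr17:34959320-34959357, - strand): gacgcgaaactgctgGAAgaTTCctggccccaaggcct
A run of 2 such units (GAANNTTC or TTCNNGAA) occurred in 8 members and in 17% of genes, and a run of 3 (GAANNTTCNNGAA or TTCNNGAANNTTC) in Hsph1, Hspd1 and Hspe1 and in 0.662% of genes. The match in Hspd1 and Hspe1 is one stretch of DNA between the genes' starts.

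Of the J-domain genes that were lower in WT CXCR6+ cells, Dnaja1 rose in both DKO subsets and Dnajb1 in CXCR6+. Dnaja1 stood at 516 and 424 CPM in DKO CXCR6+ and DKO SLAMF6+, above the highest WT library (311 CPM), with log2 fold changes of 1.46 ± 0.15, adjusted p = 2.83e-05, and 0.63 ± 0.16, adjusted p = 0.010. Dnajb1 stood at 61 and 57.8 CPM and rose in CXCR6+ (1.19 ± 0.15, adjusted p = 1.43e-04) but was not called in SLAMF6+ (0.37 ± 0.16, adjusted p = 0.107). Hspa8 rose in CXCR6+ (2522 CPM, 0.48 ± 0.13, adjusted p = 0.0166) and not in SLAMF6+ (2743 CPM, -0.20), and its rise was lost with library totals alone (0.28, adjusted p = 0.146). Hsp90aa1 stood at 227 and 238 CPM and fell in both (-1.36 ± 0.15, adjusted p = 4.09e-05, and -1.08 ± 0.14, adjusted p = 1.88e-04). Hspa4 stood at 123, 107, 110, 110.3 and 78.4 CPM in the WT CXCR6+ libraries and 139, 126, 127, 126 and 145 CPM in the WT SLAMF6+ libraries, and at 43.8 and 49.1 CPM in DKO (-1.27 and -1.43). Hsp90ab1 stood at 1146 and 1150 CPM (-0.42 and -0.88), and Hsph1 was called in neither. The Hsp90ab1 call in CXCR6+ was lost in 8 of 26 alternative settings, and that in SLAMF6+ in 1. Exons of Dnaja1 overlap those of Smu1 on the other strand over 608 bases, and 13 members in all have such an overlap, so part of their reads may belong to the partner.

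Most CCT subunits and mitochondrial chaperones fell in DKO. In each subset 6 of 7 CCT genes fell and none rose. In CXCR6+ the Cct5 call was lost in 6 of 26 alternative settings, the Cct8 call in 3 and the Cct3 call in 2. Tcp1 stood at 164 and 189 CPM (-0.92 ± 0.11, adjusted p = 8.16e-05, and -1.7 ± 0.12, adjusted p = 1.93e-06), Cct2 at 189 and 196 (-0.77 and -0.87), Cct7 at 196 and 191 (-0.68 and -1.22) and Cct5 at 236 and 246 (-0.36 and -0.93). Cct4 was not called in CXCR6+ (194 CPM, -0.19) and Cct3 not in SLAMF6+ (244 CPM, -0.40). Another subunit outside the members, Cct6a, rose in both (1.35 ± 0.14 and 0.80 ± 0.14; 437 and 426 CPM in DKO against 172 ± 17.8 and 244 ± 21.8 in WT). Hspa9 stood at 49.6 and 56.2 CPM (-1.66 ± 0.13, adjusted p = 3.86e-06, and -1.96 ± 0.13, adjusted p = 1.76e-06). Hspd1 stood at 89.3 and 87.9 CPM (-1.0 and -1.38), and Hspe1 at 185 and 214, called as lower in SLAMF6+ alone (-0.22 and -0.94). The protease Lonp1 of the mitochondrial matrix fell in both (-2.7 ± 0.23 and -2.31 ± 0.23).

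The lists of related genes held both rises and falls in DKO, where 24.6% and 26% of genes of at least 10 CPM rose and fell in CXCR6+ and 19.1% and 33.2% in SLAMF6+. Of 31 ER entry and folding genes, 6 rose and 9 fell in CXCR6+ and 2 rose and 9 fell in SLAMF6+, with the thioredoxin-like Txndc5 higher in both (2.06 and 2.15) and the oxidase Ero1a lower in both (-2.02 and -3.69). ER-associated degradation counted 2 higher and 4 lower of 16, and 0 and 6, with the segregase Vcp lower in both (-1.02 and -0.81). Of 25 heat shock regulators and co-chaperones, 9 rose and 5 fell in CXCR6+ and 5 rose and 10 fell in SLAMF6+, with Hspa4l lower in both (-1.61 and -3.48) and Hsf2 likewise (-2.86 and -2.61). Prefoldin and other CCT genes counted 4 higher and 0 lower of 9, then 1 and 2, and mitochondrial proteostasis 2 and 3 of 9, then 0 and 4. Immediate early genes fell in 9 of 12 in CXCR6+ with none higher, and in 6 of 12 in SLAMF6+ with 1 higher. Their summed level was 299 and 397 CPM in the DKO libraries and 1010 to 1475 CPM in WT, and Junb fell in both (-2.51 and -2.48). Atf3, a stress and ATF4 target, held 1 count in each DKO library, where the WT mean was 452 times the DKO value in CXCR6+ (interval 81.1 to 17840) and 769 times in SLAMF6+ (138 to 30380). Whether that shared fall of immediate early genes bears on the members was not tested.

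Whether the genotype effect differed between subsets was tested as an interaction, in which a positive value means a DKO effect that is higher in CXCR6+. It was called for 7 members, 6 higher and 1 lower, where 6.36% and 3.94% of all genes were called (15.6% and 6.67% of genes of at least 10 CPM). The higher ones were Tcp1 (0.78 ± 0.14, adjusted p = 0.0078), Hspe1 (0.72 ± 0.18, adjusted p = 0.0312), Cct5 (0.58 ± 0.15, adjusted p = 0.0341), Hspa8 (0.69 ± 0.19, adjusted p = 0.0463), Dnaja1 (0.83 ± 0.23, adjusted p = 0.0479) and Dnajb1 (0.82 ± 0.23, adjusted p = 0.049). The lower one was Calr (-0.67 ± 0.19, adjusted p = 0.0469). For Tcp1, Cct5 and Hspe1 this means a smaller drop below WT in CXCR6+, and each of the 6 had a lower level in CXCR6+ than in SLAMF6+ among WT cells. Levels of Tcp1, Cct5, Hspe1, Hspa8 and Dnajb1 were alike in the DKO pair (log2 ratios -0.21, -0.06, -0.21, -0.12 and 0.08). Their interaction thus largely restates the WT difference (-0.98, -0.63, -0.92, -0.81 and -0.74) with its sign reversed. For Dnaja1 and Calr the DKO pair differed by 0.28 and -0.33, and the WT subsets by -0.54 and 0.34. None of these calls held in all 26 alternatives: Tcp1 kept it in 25, Hspe1 in 15, and the rest in 8 to 10. For the other 32 members a difference between subsets was not shown. The haemoglobin share, high in DKO SLAMF6+ alone, enters this contrast, and its part was not tested.

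Between the 2 DKO libraries themselves, the members differed little. Hspa1a alone was past 2-fold (log2 ratio of CXCR6+ over SLAMF6+ 1.66 with a prior count of 2, from 12 and 2 counts), where 30.5% of all genes were. That share includes genes at low levels and was not counted over genes of at least 10 CPM, to which 37 members belong. With a prior count of 0.5 Hspa1b passed as well (-1.20, from 3 and 6 counts). The other 37 ratios lay between -0.49 and 0.49. Tcp1, the member that separated the WT subsets with the lowest p, was at 164 and 189 CPM here (-0.21). With 1 library each there is no test.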

How the data were processed

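Libraries were made from 1000 sorted cells each by a modified SMART-Seq2 protocol with Nextera XT and read as paired ends, per the labels' protocols; such libraries carry no strand information. The authors deposited expected counts per gene, whole numbers from STAR 2.7.7a and RSEM 1.3.3 on mm10 per the submitters' processing notes. The annotation is not given in the sources used here. No count of another sample was used.

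The members and all gene lists were chosen with earlier results of these data known. Counts of 12 libraries in 4 groups entered 1 fit in edgeR 4.0.16 (R 4.3.3): TMM scaling, filterByExpr, the quasi-likelihood test, Benjamini-Hochberg adjustment over 21565 genes and a threshold of 0.05. CPM use TMM-scaled totals, and depth was 6818658 to 11635037 counts. Named genes follow a rule: up to 4 called members per group and comparison by p, 9 members always, and up to 3 genes of each other list. Intervals of low counts are exact Poisson at 95% and cover counting error only. Coordinates and transcript lengths are from GENCODE M21 and promoters from RefSeq. The edgeR fit was tried on simulated counts for the WT subset comparison only, not for the DKO comparisons or the interaction.

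Other settings changed the scaling (size factors of DESeq2 1.42.0, or library totals, the latter chosen after seeing the data), the test (DESeq2, limma-voom with limma 3.58.1), the filter, the genes, the libraries and the model terms.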

Additional observations from a re-analysis of the deposited data

Results flagged for a closer look

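In 78 groups of 5 WT libraries (39 members in each of the WT subsets), 5 had a library far from the others by Dixon's criterion, about what chance gives at 1 in 20 groups. WT CXCR6+ replicate 4 held Sdf2l1 at 97.3 CPM, where the other libraries ran from 71.2 to 76.8, and Cct7 at 363 CPM, where they ran from 294 to 314. WT CXCR6+ replicate 3 held Cct3 at 428 CPM against 311 to 335. WT SLAMF6+ replicate 4 held Hspa9 at 245 CPM against 208 to 215, and WT SLAMF6+ replicate 2 held Hsp90aa1 at 455 CPM against 508 to 529.5.

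The DKO effect differed between the subsets by the interaction test for 7 members: Calr (-0.67), Hspa8 (0.69), Dnaja1 (0.83), Dnajb1 (0.82), Cct5 (0.57), Tcp1 (0.78) and Hspe1 (0.71). These are 6 higher and 1 lower, where 15.6% and 6.67% of genes of at least 10 CPM were called, so the share is near the background. Of 26 alternative settings, Tcp1 lost the call in 1, Hspe1 in 11 and the others in 16 to 18.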

How the results depend on the processing

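ER members that rose numbered 1 as reported, 2 with DESeq2 size factors, 3 with DESeq2's Wald test, 5 with only the compared groups, 8 with GC and length offsets, 9 with the 10 CPM filter and 10 with library totals; those that fell numbered 7, 1 with library totals, 3 with the filter, and 5 to 9 in the other settings. Cytosolic members that rose numbered 1, and 2 with DESeq2 size factors or limma-voom, 4 with the Wald test, the filter or the compared groups, 5 with offsets, 6 with totals, and 0 with an mt-Ts1 term (library at 0 counts or not) or near-identical rows summed; those that fell numbered 10, 5 with totals, and 8 to 11 in the other settings. Mitochondrial falls numbered 3, and 1 with totals or offsets. Leaving out replicates gave 1 to 2 ER and 1 to 2 cytosolic rises. In DKO CXCR6+, ER rises numbered 3, and 1 with totals or the compared groups, where cytosolic falls numbered 7 instead of 11. In DKO SLAMF6+, ER rises numbered 2, and 1 with no filter or the mt-Ts1 term; cytosolic rises numbered 1, 2 with either DESeq2 setting, 3 with the 10 CPM filter and 4 with offsets. Interaction calls numbered 6 higher and 1 lower; higher ones numbered 1 with DESeq2 size factors, totals, no filter, the 10 CPM filter or the mt-Ts1 term and 2 with offsets, and 1 to 8 leaving out replicates; lower ones numbered 0 with limma-voom, no filter, the mt-Ts1 term or without receptor and similar genes, 2 with the 10 CPM filter or offsets, and 0 to 1 leaving out replicates. In the DKO pair, 2 members passed 2-fold with the smaller prior count. The causes were not tested.

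With the replicate block, WT ER members again numbered 1 rise and 7 falls, with Dnajb9 gained (-0.91, adjusted p = 0.0395) and Ddit3 lost (-0.42, adjusted p = 0.0664); Hspa4 was lost too (-0.34, adjusted p = 0.0643), and interaction calls numbered 3 higher and 0 lower. Same-numbered WT libraries correlated at -0.018 to 0.072 in their deviations, and none best with its own number, so the numbers are not shown to pair samples.

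WT differences that changed sign did so with totals for Pdia4 (0.15), Dnajc3 (0.17), Sdf2l1 (0.31), Xbp1 (0.013), Atf4 (0.006), Hspa4 (0.07), Cct2 (0.24) and Hspd1 (0.034); with the 10 CPM filter for Pdia4 (0.015), Dnajc3 (0.045), Sdf2l1 (0.18) and Cct2 (0.12); with the compared groups for Sdf2l1 (0.047); and with offsets for Sdf2l1 (0.27), Manf (0.32), Atf6 (-0.30), Hsp90ab1 (0.16), Cct2 (0.62), Cct8 (0.079) and Hspd1 (0.047). Leaving out replicates, Hspa5 ran from -0.015 to 0.19 and Hsp90b1 from -0.01 to 0.11. In DKO CXCR6+, signs changed for Dnajb11 with totals (-0.048), Herpud1 with the filter (0.012) or offsets (0.38) and from -0.075 to 0.052 leaving out replicates, and Cct5 with offsets (0.024). In DKO SLAMF6+ they changed for Pdia3 with DESeq2 size factors (0.022), the Wald test (0.021), the filter (0.25), the mt-Ts1 term (0.052) and offsets (0.29), Hspa8 with the filter (0.093) and offsets (0.30), and Cct3 with offsets (0.10).

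With 1 DKO library per subset, no DKO value has a replicate. Hspa1a, Hspa1b, Atf3, Chac1 and Sesn2 rest on 0 to 23 DKO counts, where depth limits precision.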
